A study of Mus musculus with 346 samples.

Results

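The 39 genes of the HoxA, HoxB, HoxC and HoxD clusters were followed in single mammary epithelial cells of the mouse. They were taken as every gene whose symbol is Hoxa, Hoxb, Hoxc or Hoxd followed only by digits, after the Entrez numbers in the count files had been matched to symbols, which gave 39 of the 27179 genes in the files. HoxA on chromosome 6 had 11 members, HoxB on chromosome 11 had 10, HoxC on chromosome 15 had 9 and HoxD on chromosome 2 had 9. The 346 cells analysed here came from untreated female mice of the inbred strain FVB/NJ: 144 pre-pubertal cells (age 2 weeks), 136 pubertal cells (age 4.7 to 4.9 weeks) and 66 adult cells (age 10 weeks). All were sorted as CD31-, CD45- and Ter119- mammary epithelium by CD24 and CD29, caught on Fluidigm C1 chips, which lyse each cell in its own chamber, and sequenced from full-length cDNA of polyadenylated RNA. The sources differ on how many mice stand behind each stage, and no label ties a cell to a mouse, a sort or a chip. Each stage is therefore 1 sample, no test was made between stages or between cell classes, and the intervals below cover counting error only. Those on levels count reads, among them amplified copies of the same molecule.

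Hox genes encode transcription factors that bind DNA through a homeodomain and give cells their position along the body axis and the limbs. Within a cluster they lie in the order in which they are used from head to tail, and members at the same place in different clusters, the paralogues, carry the same number and have similar homeodomains. Many Hox proteins bind DNA together with homeodomain cofactors of the Pbx and Meis families. Several paralogue group 9 genes are needed for the mammary gland to develop for lactation, and Hoxc13 is known for its control of keratin genes in hair and nails.

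Cells with at least 100000 reads on the 25140 analysed genes and at least 1500 detected genes were kept, which left 116 pre-pubertal, 119 pubertal and 44 adult cells with median depths of 296600, 574825 and 334667 reads. To compare detection at equal depth, a random draw of 100000 reads per cell, the thinned count, was also used. The label of epithelium did not hold in the same way at all stages. Of 14 pan-epithelial markers, the median pre-pubertal cell had a read of 0, against 10 at puberty and 7 in the adult. Of 24 markers of Schwann cells, the glia of peripheral nerves, it had 19, against 2 and 3, and no kept pre-pubertal cell had fewer than 8. The summed level of the Schwann list, in counts per 1000000 reads (CPM), was 28733 in pre-pubertal, 2067 in pubertal and 2872 in adult cells. A difference between pre-puberty and a later stage therefore cannot be told apart from a difference in the kind of cell. Pre-pubertal cells 1 to 37 also stood apart in depth, with 12 kept cells at a median of 937028 reads against 283483 for the 104 kept cells from 38 on.

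The results turn on Hoxb3, Hoxc13 and Hoxd8, the Hox genes that differed by at least 1 log2 unit (with 5 CPM added) between stages both with all kept cells and when the top cell of each gene was left out. The homeoboxes of Hoxc13 and Hoxd8, the 180 coding bases that encode the homeodomain, are shown with that of Hoxa5, because reads of near-identical sequence could not have been told apart. Each lies within a single coding exon in the GENCODE M21 annotation of GRCm38, the assembly behind mm10: Hoxa5 at chr6:52202632-52202811 (minus strand), Hoxc13 at chr15:102927210-102927389 (plus strand) and Hoxd8 at chr2:74706525-74706704 (plus strand). They are written 5′ to 3′ in the sense of the gene, and capitals mark bases that differ from Hoxa5.
Hoxa5: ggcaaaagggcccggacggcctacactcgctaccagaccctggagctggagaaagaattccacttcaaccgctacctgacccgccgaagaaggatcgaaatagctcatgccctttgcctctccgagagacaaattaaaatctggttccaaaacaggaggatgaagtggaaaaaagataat
Hoxc13: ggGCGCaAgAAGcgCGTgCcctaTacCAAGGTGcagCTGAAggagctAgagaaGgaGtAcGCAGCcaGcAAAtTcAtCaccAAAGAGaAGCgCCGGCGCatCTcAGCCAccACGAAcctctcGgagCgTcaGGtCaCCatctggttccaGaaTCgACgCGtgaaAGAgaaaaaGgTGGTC
Hoxd8: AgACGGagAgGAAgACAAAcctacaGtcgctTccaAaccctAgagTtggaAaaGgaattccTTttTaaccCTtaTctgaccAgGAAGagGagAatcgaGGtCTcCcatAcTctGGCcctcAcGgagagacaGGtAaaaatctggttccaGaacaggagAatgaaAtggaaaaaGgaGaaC
Relative to Hoxa5, 93 of the 180 bases differed in Hoxc13 (48.3% identity) and 55 in Hoxd8 (69.4%). Over the 741 pairs among all 39 homeoboxes, identity ran from 46.1% to 93.9%, with a median of 80.6% between paralogues of the same number and 60.6% between others. The longest run of identical bases within the homeoboxes was 52, between Hoxa6 and Hoxb4. Of the 39 genes, 22 shared no stretch of 75 bases with any transcript of another gene, among them Hoxc13, Hoxd8 and Hoxa5, and 4 shared such a stretch with another Hox gene. The Hoxb3 exons did overlap another gene: 52.9% of their bases lie opposite exons of the antisense transcript Hoxb3os. The library kit does not mark strand, so Hoxb3 reads over that stretch cannot be told apart from reads of Hoxb3os.

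Hox reads were sparse at every stage. Of the 39 genes, 33 had a read in at least 1 of the 279 kept cells, against 80.3% of all analysed genes, and Hoxa4, Hoxa13, Hoxb1, Hoxb13, Hoxc11 and Hoxd11 had none. At single stages, 27 Hox genes had a read in pre-pubertal, 26 in pubertal and 11 in adult cells, of which fewer were kept, and the shares of all genes were 68.8%, 71.7% and 55.2%. Only Hoxc13 and Hoxd8 at pre-puberty, Hoxb3 at puberty and Hoxb3 in the adult had a read in at least 10% of thinned cells, a mark that 30.1%, 30.0% and 24.6% of all genes reached at these stages. Some of the others, such as Hoxa3, Hoxa11, Hoxd10, Hoxd12 and Hoxd13, had between 1 and 4 reads in all kept cells together.

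The summed level of the 39 genes was 57.7 CPM in pre-pubertal cells (95% Poisson interval 55.3 to 60.0), 30.5 CPM in pubertal cells (29.2 to 31.9) and 29.9 CPM in adult cells (27.5 to 32.5). Without the top cell of each gene these sums were 26.5, 17.6 and 3.52 CPM, so the adult sum rested almost wholly on single cells. After thinning, 50 of 116 pre-pubertal cells had a read of any Hox gene (43.1%, exact binomial interval 33.9 to 52.6), against 37 of 119 at puberty (31.1%, 22.9 to 40.2) and 14 of the 44 adult cells (31.8%, 18.6 to 47.6). The 3 intervals overlapped. At full depth the shares were 58.6%, 52.1% and 36.4%. The median thinned cell had a read of 0 Hox genes at each stage, and the highest number in a thinned cell was 5 before puberty and 4 at each later stage.

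**Figure D1:**
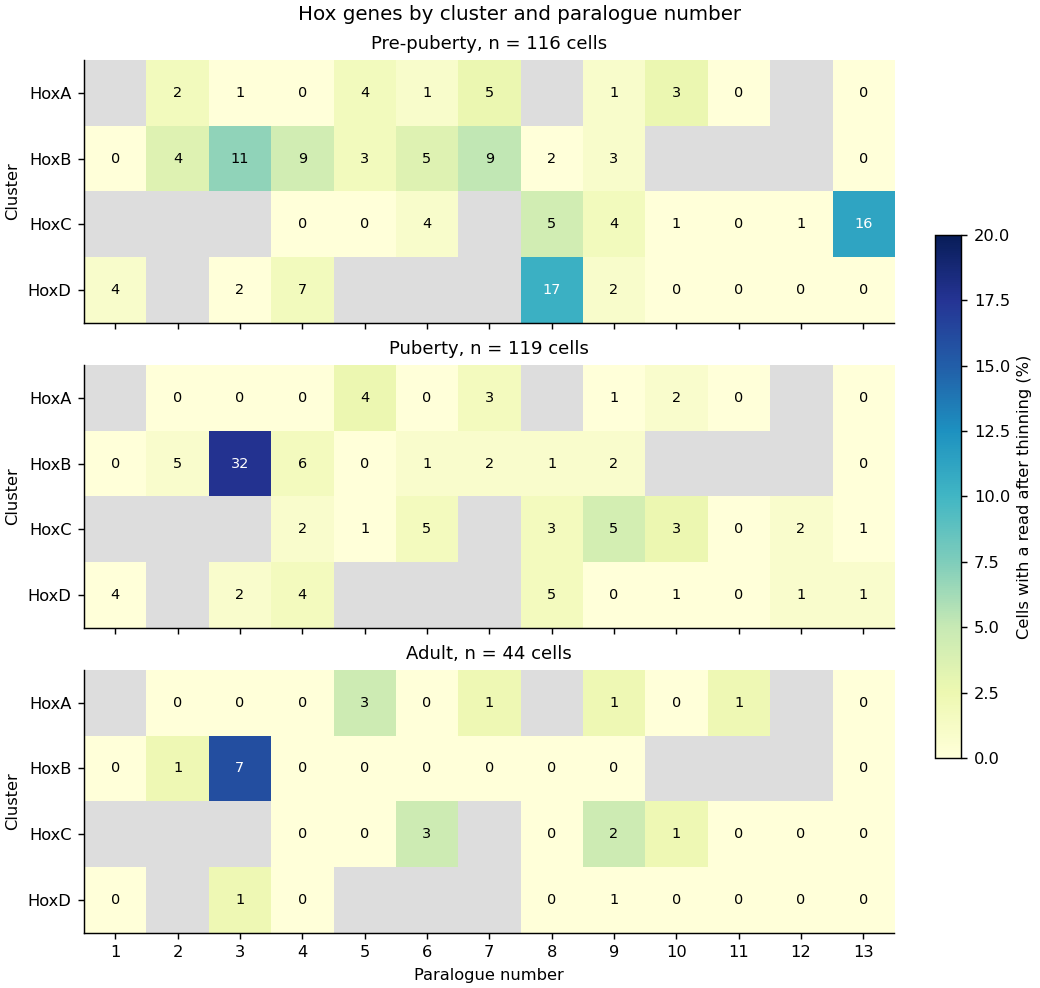
Number of kept cells with a read of each Hox gene (digits) and percentage of cells with a read after thinning (colour, 0 to 20%), by cluster (rows) and paralogue number (columns) at each stage. Grey squares have no gene or are not shown. The darkest squares are Hoxc13 and Hoxd8 at pre-puberty (16 and 17 cells) and Hoxb3 at puberty and in the adult (32 and 7 cells).

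Hoxb3, a paralogue group 3 gene known for patterning of the hindbrain and pharyngeal region, was the Hox gene with reads in the most pubertal cells. It had 1358 reads in 32 of 119 pubertal cells, against 90 reads in 7 of 44 adult cells and reads in 11 of 116 pre-pubertal cells. Its level was 19.8 CPM at puberty (18.8 to 20.9), 3.66 at pre-puberty (3.10 to 4.30) and 4.81 in the adult (3.87 to 5.92). The interval at puberty lay above both others, but it counts reads, among them amplified copies of the same molecule. It is therefore too narrow for a count of molecules or of cells.

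Among the 32 pubertal cells with a Hoxb3 read, counts ran from 1 to 374 reads with a median of 5, and the 14 cells with 10 or more reads held 96.4% of the total. The 7 adult cells had 4 to 32 reads, and the 11 pre-pubertal cells had 1 to 63 reads, of which a pair of cells with 63 each held most. The ranges of the stages overlapped, and most cells of every stage had no Hoxb3 read. Puberty was 5.42-fold above pre-puberty (counting interval 4.57 to 6.46) and 4.12-fold above the adult (3.33 to 5.16), or 3.99-fold and 3.03-fold when the top cell of each stage was left out. On the scale used for all genes, log2 of CPM with 5 CPM added, which understates the change of low genes, the differences were -1.52 (pre-puberty over puberty) and 1.34 (puberty over adult), the latter 0.92 when only cells with 200000 to 600000 reads were used. The share of cells differed less between the later stages: after thinning it was 21 of 119 at puberty (17.6%, 11.3 to 25.7), 7 of 44 in the adult (15.9%, 6.64 to 30.1) and 8 of 116 at pre-puberty (6.90%).

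Pubertal cells with a Hoxb3 read had a read of a median of 7 of 15 basal (myoepithelial) markers, against 1 in pubertal cells without one, while both had 7 of 10 luminal markers. In the adult the basal medians were 11 and 6, and at pre-puberty 5 and 2. Depth was similar, with pubertal medians of 547596 reads in cells with and 579275 in cells without a Hoxb3 read.

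Hoxc13 had reads almost entirely at pre-puberty. It had 642 reads in 16 of 116 pre-pubertal cells, 1 read in 1 of 119 pubertal cells and none in 44 adult cells, where 3 reads would have been 0.160 CPM. Its pre-pubertal level was 15.8 CPM (14.6 to 17.0), or 11.4 CPM without the top cell. The 16 cells had 1 to 179 reads with a median of 4.5, and the next highest cells had 140 and 89, so several cells and not 1 carried the value. After thinning, 13 of 116 cells had a read (11.2%). The ratio of pre-puberty to puberty was 1080, with a counting interval of 193 to 42731 because of the single pubertal read, and pre-puberty was at least 98.3-fold above the limit of 3 reads over the adult cells.

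Hoxd8, a trunk-level gene of the HoxD cluster, likewise stood highest at pre-puberty, with 897 reads in 17 of 116 cells against 47 reads in 5 of 119 pubertal cells and none in 44 adult cells. Its level was 22.0 CPM (20.6 to 23.5) at pre-puberty and 0.686 CPM (0.504 to 0.913) at puberty. Cell 57 alone held 600 of the pre-pubertal reads, and without it the level was 7.38 CPM. The median of the 17 cells was 4 reads, and the next highest had 109 and 78. The fold of pre-puberty over puberty was 32.1 (23.9 to 44.0), or 10.8 without the top cell of each stage. Against the adult limit of 3 reads it was at least 137-fold, or 46.0 without the top cell. After thinning, 12 of 116 pre-pubertal cells had a read (10.3%), against 2 of 119 pubertal cells.

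The Schwann markers, of which no kept pre-pubertal cell had fewer than 8, did not separate the pre-pubertal cells with Hoxc13 or Hoxd8 from the rest. Cells with a Hoxc13 read had a median of 19 of 24 Schwann markers, as did cells without one, and cells with a Hoxd8 read had 18 against 19. The pan-epithelial medians were 1.5 with and 0 without a Hoxc13 read, of 14 markers, with ranges of 0 to 6 and 0 to 9. For Hoxd8 they were 0 and 0. The basal medians were 4.5 and 2 of 15 for Hoxc13, and 1 and 2 for Hoxd8. The 7 cells with 10 or more Hoxc13 reads held 97.0% of its reads. They had 1 to 6 pan-epithelial and 2 to 12 basal markers, where the upper quartiles over all kept pre-pubertal cells were 1 and 5. The 7 cells with 10 or more Hoxd8 reads had 0 to 6 and 0 to 9. Whether Hoxc13 reads go with epithelial markers was not tested. Between cells 1 to 37 and cells from 38 on, which differ in depth, Hoxc13 was level at 15.3 and 15.9 CPM and Hoxd8 stood at 2.09 and 29.0 CPM. After thinning, Hoxc13 had a read in 3 of 12 and 10 of 104 of these cells and Hoxd8 in 2 of 12 and 10 of 104. The Hoxd8 level from cell 38 on includes cell 57, which held 600 of the 897 pre-pubertal Hoxd8 reads.

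**Figure D2:**
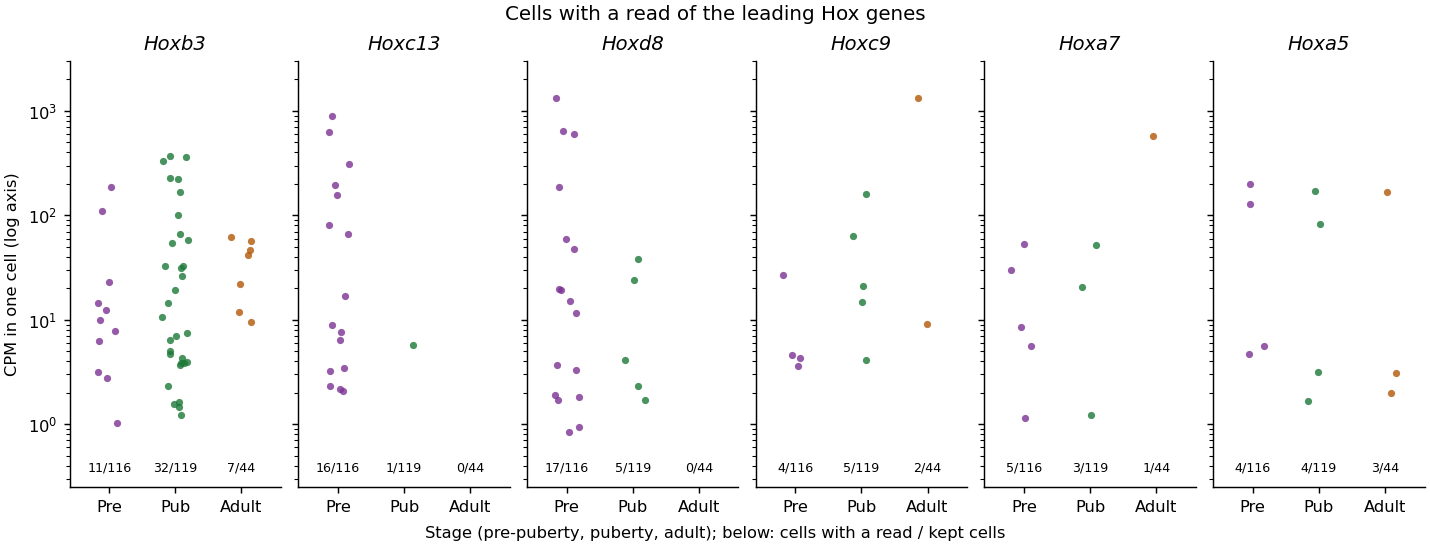
CPM (log axis) in every kept cell with a read of Hoxb3, Hoxc13, Hoxd8, Hoxc9, Hoxa7 or Hoxa5, by stage. Each point is a cell, and the digits give cells with a read over kept cells. Hoxb3 is spread over 32 pubertal cells, Hoxc13 and Hoxd8 over 16 and 17 pre-pubertal cells, and the adult values of Hoxc9 and Hoxa7 come from 2 cells and 1 cell.

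The remaining genes with adult levels above those of other stages were each carried by a single cell. Hoxa7 stood at 8.88 CPM in the adult, against 1.70 at pre-puberty and 0.394 at puberty, and all 166 adult reads came from cell 5. Hoxc9, a paralogue group 9 gene, stood at 11.3 CPM in the adult, against 0.197 and 2.18 CPM, and 209 of its 211 adult reads came from cell 49, without which the adult level was 0.108 CPM. Hoxa9, of the same paralogue group, had 36 adult reads, all in 1 cell. None of these 3 genes can be called higher in the adult as a stage on these values.

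Counted over all 39 members, 2 genes (Hoxc13 and Hoxd8) were at least 1 log2 unit higher at pre-puberty than at puberty and 1 (Hoxb3) was at least 1 lower, against 9.44% and 10.5% of all analysed genes. Between pre-puberty and the adult the counts were 2 higher (Hoxc13, Hoxd8) and 2 lower (Hoxa7, Hoxc9), against 14.2% and 11.9%. Between puberty and the adult they were 1 higher (Hoxb3) and 2 lower (Hoxa7, Hoxc9), against 12.7% and 8.26%. These shares of the 39 genes were below those of all genes, and 35 or 36 of the 39 stayed within 1 log2 unit in each comparison. With 5 CPM added, however, a gene under 5 CPM at both stages cannot reach 1 log2 unit. Only Hoxa7, Hoxb3, Hoxc9, Hoxc13 and Hoxd8 reached 5 CPM at any stage. The low shares therefore do not show that Hox genes changed less than other genes. The median Hox log2 difference was 0.00 between pre-puberty and puberty, 0.01 between pre-puberty and adult, and 0.00 between puberty and adult, beside 0.00 over all genes each time. With 1 CPM added in place of 5, Hoxc13 and Hoxd8 remained past the fold against both later stages, and Hoxb3 against both other stages, at 4.05, 3.77 and -2.16 for pre-puberty over puberty.

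Per length, in reads per 1000 bases per 1000000 reads (RPKM), the highest pre-pubertal levels among the Hox genes were 15.5 for Hoxd8, 6.48 for Hoxc13 and 2.34 for Hoxa5. At puberty they were 5.33 for Hoxb3, 1.27 for Hoxc9 and 1.19 for Hoxc6. In the adult they were 6.57 for Hoxc9, 4.55 for Hoxa7, 1.29 for Hoxb3 and 1.11 for Hoxa5. Hoxa5, known for its roles in lung and mammary development, was detected at all stages in few cells, with 4.40 CPM in 4 pre-pubertal cells, 1.402 CPM in 4 pubertal cells and 2.09 CPM in 3 adult cells, and 1.66, 0.221 and 0.108 CPM without the top cell. Hoxc6 had 130 pubertal reads in 5 cells, 67 of them in cell 40, and no more than 6 reads at either other stage. Hoxb7 had 63 pubertal reads, almost all in cell 35. Hoxb2, at 1.84 CPM in 4 pre-pubertal cells, and Hoxb5, at 1.30 CPM in 3 pre-pubertal cells, stood at 0.526 and 0 CPM at puberty. Cell 19 held 49 of the 53 pre-pubertal Hoxb5 reads, without which the level was 0.101 CPM, and Hoxb2 stood at 0.929 CPM without cell 21.

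By cluster, HoxD led at pre-puberty, HoxB at puberty and HoxA in the adult, but in each case a single gene made up most of the sum, and the order at the first and last stage rested on single cells. Without the top cell of each gene, HoxC led at pre-puberty with 12.1 CPM against 7.68 for HoxD, and HoxB led in the adult with 3.19 CPM against 0.108 for HoxA. HoxD stood at 23.0 CPM in pre-pubertal (21.6 to 24.5), 0.949 CPM in pubertal and 0.107 CPM in adult cells, and without Hoxd8 its pre-pubertal level was 0.983 CPM. HoxB stood at 21.6 CPM at puberty (20.5 to 22.8), 9.46 at pre-puberty and 5.08 in the adult, and without Hoxb3 at 1.81, 5.80 and 0.267 CPM. Leaving out Hoxb3 therefore turned the order of the first pair of stages. HoxC stood at 17.1, 6.00 and 11.8 CPM from pre-puberty to adult, led by Hoxc13 and then by Hoxc9, and without those genes at 1.38, 3.83 and 0.481 CPM. HoxA stood at 8.03, 1.93 and 12.9 CPM, and the adult value without Hoxa7 was 4.07 CPM.

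By share of thinned cells with a read, HoxB was the cluster detected most widely at each stage, in 22.4% of pre-pubertal (15.2 to 31.1), 21.0% of pubertal (14.1 to 29.4) and 15.9% of adult cells (6.64 to 30.1). HoxC followed at pre-puberty with 17.2% and at puberty with 7.56%, and HoxD had 11.2% and 5.88%. HoxA had 8.62%, 5.04% and 11.4%.

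**Figure D3:**
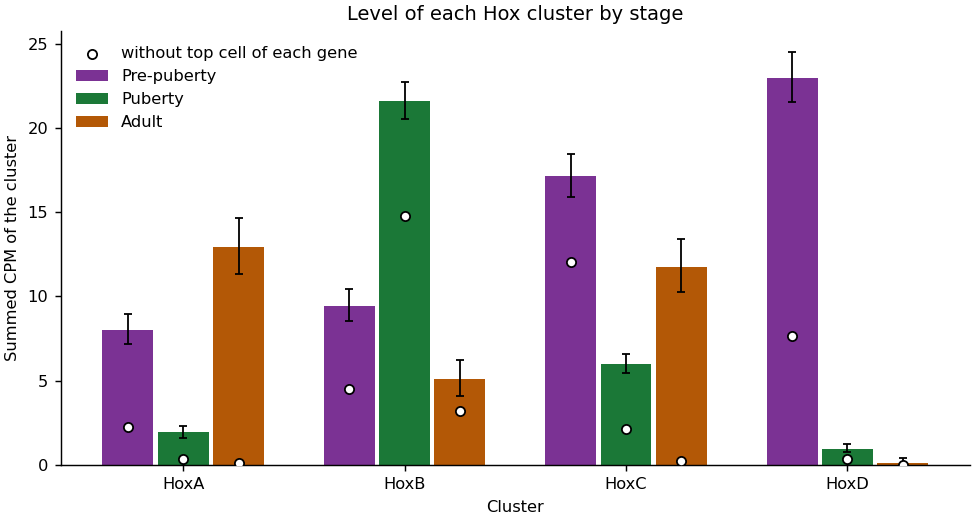
Summed CPM of each Hox cluster by stage. Bars are sums over all kept cells, error bars are 95% Poisson intervals for counting error, and white points leave out the top cell of each gene. HoxB is highest at puberty with and without the top cells (21.6 and 14.8 CPM), while the adult HoxA and HoxC levels are 0.108 and 0.216 CPM without them.

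By paralogue number, reads gathered in a few groups. At pre-puberty, group 8 had 23.1 CPM, nearly all Hoxd8, and group 13 had 15.8 CPM, all Hoxc13, since Hoxa13, Hoxb13 and Hoxd13 had no read there. Group 5 followed with 5.70 CPM and group 3 with 3.73 CPM. At puberty, group 3 had 19.9 CPM and the next were group 9 with 2.31 and group 6 with 1.99 CPM. In the adult, group 9 had 13.3 CPM and group 7 had 8.88 CPM, both from the single cells named above, and group 3 had 4.87 CPM. Groups 1, 4, 8, 12 and 13 had no adult read. The pattern did not move evenly along the clusters: the head-end groups 1 to 4 summed to 7.07, 20.9 and 5.14 CPM from pre-puberty to adult, groups 5 to 8 to 32.6, 6.48 and 11.3 CPM, groups 9 and 10 to 2.14, 3.04 and 13.4 CPM, and the tail-end groups 11 to 13 to 15.8, 0.102 and 0.0535 CPM. Excluding Hoxc13, the tail-end groups had 1 read at pre-puberty.

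Cells with reads of several Hox genes were few. After thinning, 18 of 116 pre-pubertal cells had reads of 2 or more Hox genes (15.5%, 9.46 to 23.4), beside 8 of 119 pubertal (6.72%, 2.95 to 12.8) and 3 of 44 adult cells (6.82%, 1.43 to 18.7). At full depth there were 32, 21 and 4 such cells, and in 47 of these 57 the genes lay in at least 2 clusters on different chromosomes. Only 16 of the 57 held reads of genes that neighbour each other in a cluster. Pre-pubertal cell 109 had reads of the most genes, 6: Hoxb9 (25 reads), Hoxc8 (9), Hoxa7 (4) and Hoxb8, Hoxc6 and Hoxd1 (1 each). Pubertal cell 40 had 100 reads of Hoxc9, 67 of Hoxc6, 11 of Hoxc10, 4 of Hoxb3 and 2 of Hoxa10, and adult cell 45 had 37 of Hoxa5, 4 of Hoxc6, 3 of Hoxc10 and 2 of Hoxc9.

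Pubertal cell 40 and adult cells 45 and 49 were also rich in fibroblast markers, with 12, 17 and 11 of 19. Across the stages, 9 pre-pubertal, 9 pubertal and 4 adult cells had 10 or more of these markers, and 2, 3 and 1 of them had reads of 2 or more Hox genes after thinning, against 16 of 107, 5 of 110 and 2 of 40 of the other cells. The median cell had 6, 2 and 3 fibroblast markers, and the summed list stood at 8766, 3545 and 3227 CPM. Without the fibroblast-rich cells the summed Hox level was 61.9, 28.9 and 17.3 CPM, and the adult level of Hoxc9 no longer stood above the other stages. Their part in the multiple detections was not tested.

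The layers of the gland were compared next through their keratins: Krt14 marks basal cells and Krt8 and Krt18 mark luminal cells. A cell was called positive above 40 RPKM. At puberty, 5 cells had Krt14 only, 80 had Krt8 or Krt18 only, 24 had both and 10 had neither. In the adult the counts were 5, 22, 14 and 3, and at pre-puberty 10, 2, 7 and 97, so the comparison could hardly be made there. The basal markers, which include Krt14 itself, differed between the classes. Their median was 10 of 15 in pubertal Krt14-only cells, 1 in Krt8 or Krt18-only cells, 11 in cells with both and 7 in cells with neither.

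Hox reads were found in every keratin class. At puberty, 1 of 5 Krt14-only cells had a Hox read after thinning (20.0%), against 20 of 80 Krt8 or Krt18-only cells (25.0%, 16.0 to 35.9), 12 of 24 cells with both (50.0%, 29.1 to 70.9) and 4 of 10 with neither (40.0%). In the adult the counts were 2 of 5, 7 of 22, 4 of 14 and 1 of 3. At pre-puberty they were 6 of 10, 1 of 2, 3 of 7 and 40 of 97. The intervals of the classes overlapped, and with 5 Krt14-only cells a difference was not detectable.

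When cells with both keratins were counted on both sides, the pubertal shares lay in the other direction. A Hox read was found in 13 of 29 Krt14-positive cells after thinning (44.8%, 26.4 to 64.3) and in 32 of 104 Krt8 or Krt18-positive cells (30.8%, 22.1 to 40.6), at 40.3 and 23.2 CPM. In the adult it was found in 6 of 19 (31.6%, 12.6 to 56.6) and 11 of 36 (30.6%, 16.3 to 48.1), at 36.1 and 21.8 CPM, and at pre-puberty in 9 of 17 and 4 of 9. The levels leaned on single cells. Adult cell 49 held 209 of the 224 Hox reads of cells with both keratins, which stood at 2.76 CPM without it. It was counted on both sides, so neither adult level describes its class. At puberty, cell 63 held 195 of the 207 Hox reads of Krt14-only cells. The intervals of the shares overlapped at each stage. Hoxb3 had log2 differences of 0.35 at puberty and 0.84 in the adult between these wider classes, under the fold at both stages.

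Hoxb3 was the only Hox gene past the fold between the keratin classes at puberty and in the adult. At puberty it had 50.4 CPM in Krt14-only cells and 12.7 CPM in Krt8 or Krt18-only cells, a log2 difference of 1.65, beside 7.51% of all genes at least 1 higher. But 195 of the 206 reads in Krt14-only cells came from cell 63, and the difference was -0.64 without the top cell of each class. In the adult it had 24.9 CPM in 2 of 5 Krt14-only cells and 2.59 CPM in 3 of 22 Krt8 or Krt18-only cells, a log2 difference of 1.98, beside 7.45% of all genes. This difference also depended on the threshold, with -0.57 when a cell was called positive above 10 RPKM. No Hox gene was at least 1 lower in Krt14-only cells at either stage, against 21.6% and 19.5% of all genes. With 5 CPM added, such a call needs at least 5 CPM in Krt8 or Krt18-only cells. At puberty only Hoxb3 reached that level and in the adult no Hox gene did, so the absence was largely fixed in advance.

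The pubertal cells with both keratins had Hoxb3 in 6 of 24 thinned cells (25.0%) at 4.05 CPM and Hoxc9 in 4 of 24 (16.7%) at 3.75 CPM. The 10 pubertal cells with neither keratin had Hoxb3 in 3 cells at 83.3 CPM, of which cell 49 held 374 of 528 reads. Of the 32 pubertal cells with a Hoxb3 read, 18 were Krt8 or Krt18-only cells, 9 had both keratins, 2 had Krt14 only and 3 had neither. Krt8 or Krt18-only cells made up 67.2% of the kept pubertal cells, and 22.5% of them had a Hoxb3 read at full depth. The share was 37.5% of cells with both keratins, 40.0% of the 5 with Krt14 only and 30.0% of the 10 with neither. At pre-puberty, 14 of the 16 cells with Hoxc13 and 13 of the 17 with Hoxd8 had neither keratin, as did 97 of all 116 cells. In the 10 pre-pubertal Krt14-only cells, Hoxa5, Hoxb2, Hoxb3 and Hoxc13 were past the fold over the 2 Krt8 or Krt18-only cells and Hoxd8 was past it in the other direction, beside 19.2% and 6.79% of all genes. All 78 Hoxd8 reads of the pair came from cell 55 and all 32 Hoxb2 reads of the Krt14-only cells from cell 27, which also held 113 of their 177 Hoxa5 reads.

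**Figure D4:**
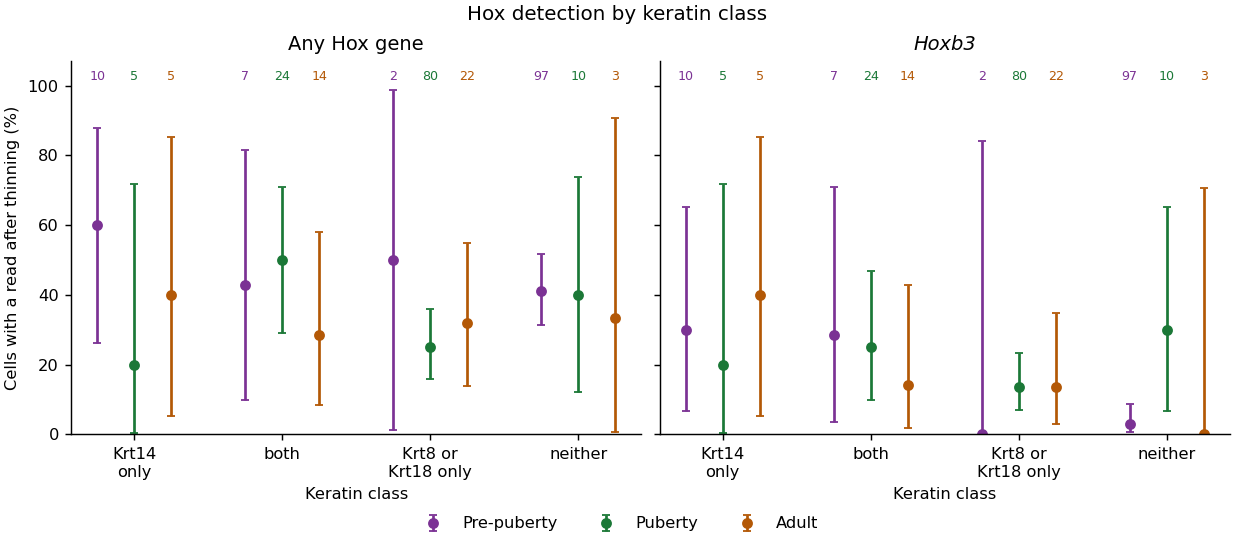
Percentage of thinned cells with a read of any Hox gene (left) and of Hoxb3 (right), by keratin class and stage. Points are shares, bars are exact 95% binomial intervals, and the digits above give the cells in each class. The intervals of the classes overlap within each stage for any Hox gene, and those of Krt14-only cells (5 at puberty, 5 in the adult) span most of the axis.

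Cofactors of the Pbx, Meis and Pknox families bind DNA together with Hox proteins. Meis1 was highest at puberty, at 88.7 CPM in 46 of 119 cells (64.5 CPM without the top cell), against 2.16 CPM in 8 of 116 pre-pubertal cells and 8.83 CPM in 8 of 44 adult cells (1.16 and 5.15 CPM without the top cell). Its log2 differences were -3.71 (pre-puberty over puberty) and 2.76 (puberty over adult). Its log2 difference for Krt14-only over Krt8 or Krt18-only cells was -4.49 at puberty and -1.67 in the adult, with only 5 Krt14-only cells at each stage and beside 21.6% and 19.5% of all genes at least 1 lower. Pbx3 was also past the fold at puberty, at 16.1 CPM, but stood at 0.664 CPM without a single cell. Pbx2, Pbx4, Meis2, Meis3, Pknox1 and Pknox2 were not past the fold between any pair of stages. Of these, Pbx2, Pbx4 and Meis2 stayed under 5 CPM at each stage and so could not reach it.

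**Figure D5:**
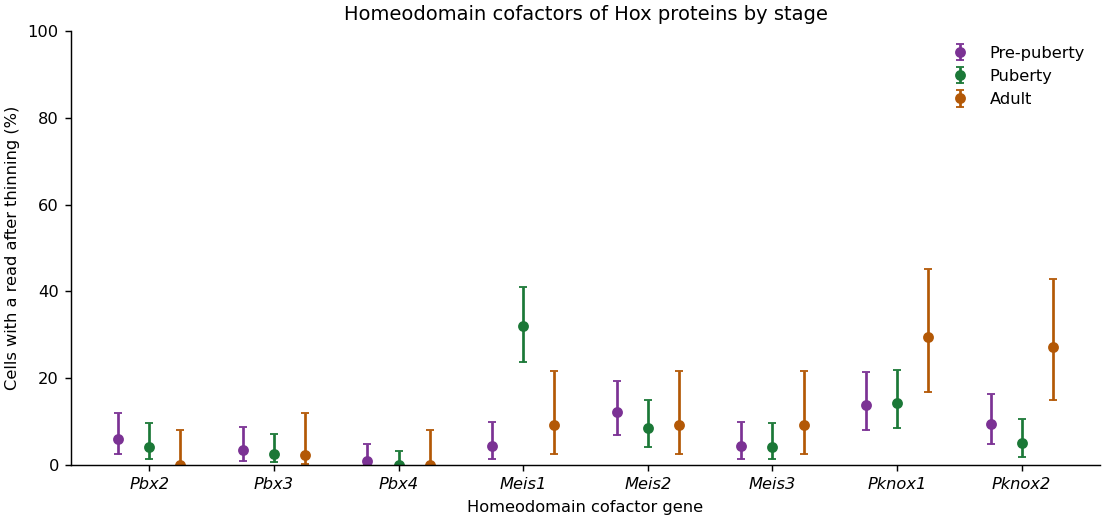
Percentage of thinned cells with a read of each of 8 homeodomain cofactor genes, by stage, with exact 95% binomial intervals. Meis1 has a read in 31.9% of cells at puberty against 4.31% and 9.09% at the other stages.

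Polycomb and trithorax proteins keep Hox clusters silent or active through histone marks. Of 27 such genes, the pre-pubertal level was at least 1 log2 unit higher for 1 and lower for 3 against puberty and for 5 and 6 against the adult, and the pubertal level was higher for 4 and lower for 3 against the adult. Of all genes, 9.44% and 10.5%, 14.2% and 11.9%, and 12.7% and 8.26% were called in these directions. Ezh2, the methyltransferase of Polycomb repressive complex 2, stood at 268, 173 and 118 CPM from pre-puberty to adult, with a read in 70.7%, 40.3% and 45.5% of thinned cells. Bmi1, of Polycomb repressive complex 1, ran the other way, at 22.7, 89.0 and 251 CPM, although the adult value was 121 CPM without its top cell and came from 10 of 44 cells. Phc1, of the same complex, had 19.9, 42.8 and 0.321 CPM from pre-puberty to adult, or 9.68, 23.1 and 0.109 CPM without the top cell of each stage.

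Retinoic acid activates Hox genes from the head end of the clusters during development. Of 17 genes for its synthesis, transport, receptors and breakdown, the pre-pubertal level was at least 1 log2 unit higher for 3 and lower for 2 against puberty and for 6 and 2 against the adult, and the pubertal level was higher for 2 and lower for 1 against the adult, beside the same shares of all genes. The receptors Rxrg and Rarb stood at 182 and 100 CPM at pre-puberty, in 56.9% and 27.6% of thinned cells, and at 0.0146 and 0.482 CPM at puberty. Cell 132 held 48.3% of the pre-pubertal Rarb reads, and without it the level was 52.4 CPM. Aldh1a1, which makes retinoic acid, stood at 66.1, 19.3 and 0 CPM, and the pubertal value was 12.2 CPM without its top cell. The Schwann markers given above were likewise highest at pre-puberty, and their part in these values was not tested.

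Other homeobox regulators of position were almost absent: of 12 genes, none had a read in 10% of thinned cells at any stage, and Meox1, at 9.45 CPM in 16 pubertal cells, was past the fold over both other stages, with 2.29 CPM without the top cell. Of 15 noncoding genes of the Hox clusters, 10 were matched in the files. None was past the fold, which a gene under 5 CPM at both stages cannot reach. The highest was Hoxd3os1, at 2.87 CPM in 4 pre-pubertal cells, or 0.149 CPM without the top cell. Hoxb3os, which lies opposite Hoxb3, was among the 5 that were not matched.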

How the data were processed

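RNA was measured in single cells, and the values used are raw read counts per gene and cell as deposited by the authors, who per their methods mapped read pairs to mm10 with Subread (1.4.6 in the submitters' processing notes) and counted them per Entrez gene by featureCounts, using the RefSeq annotation built into Rsubread. The deposited files also give each gene's length in bases, which was used only for RPKM. Amplified copies were counted separately, since the protocol has no molecular identifiers. Nextera XT does not mark strand, and how read pairs shared between similar genes were treated is not given in the sources used here, so the values of Krt8 and Krt18, which have many pseudogene copies, are uncertain.

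Symbols came from the RefSeq table of GRCm38.p6, where 25275 of 27179 genes matched. The 1904 unmatched genes, 15 mitochondrial genes and 120 ribosomal protein genes were left out. No kept cells held identical counts, and no doublet caller was run because the authors had inspected each well by microscope. Reads of the kept cells of a stage or class were summed and scaled to CPM with exact Poisson 95% intervals. Shares of cells have exact Clopper-Pearson 95% intervals, and a count of 0 allows up to 3 counts. Log2 ratios were taken after adding 5 CPM, and a size of 1 was called past the fold. Cells were thinned to 100000 reads with a fixed seed. Alternatives included edgeR (4.0.16) TMM factors, other filters, equal weight for cells and other keratin thresholds. Homeoboxes and shared 75-base stretches were read from GENCODE M21 transcripts and coordinates. A few genes and sequences are not reported here. The calculations were tested on simulated data. Python 3.11.15, numpy 2.4.6, scipy 1.17.1, pandas 2.3.3 and R 4.3.3 were used.

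The Hox genes, the other gene lists and the marker lists were chosen with earlier results of these data known. Single genes were named when a read was found in at least 10% of thinned cells of a stage or of a keratin class of at least 10 cells, when no kept cell had a read, when they were among the 5 highest by log2 ratio in a direction or by RPKM at a stage, or, in the other lists, when among the 3 highest in CPM or the 2 largest log2 ratios.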

Additional observations from a re-analysis of the deposited data

Results flagged for a closer look

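The comparisons left out cells below the coverage filter, and these also held Hox reads, above the level that a count of 0 allows. The 28 pre-pubertal cells left out had a summed Hox level of 48.8 CPM (31.9 to 71.6) from 26 reads, with Hoxd8 first at 11 reads, where 3 reads would have been 5.63 CPM. The 17 pubertal cells left out had 84.2 CPM (64.7 to 108) from 63 reads, of which 59 were Hoxb3 and 57 came from a single cell. The 22 adult cells left out had 22.9 CPM (11.0 to 42.2) from 10 reads, of which 6 were Hoxb4, a gene with no read in the kept adult cells. The leading genes at the first pair of stages, Hoxd8 and Hoxb3, were also those of the kept cells.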

How the results depend on the processing

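No paired analysis was possible because the numbers in the labels only name cells, each stage is 1 sample and no test was made. For the same reason no replicate could be left out. Of the alternative values of the 28 results that answer a comparison, 203 stayed within their interval or within 1.5 times the count, and 67 moved. For the other 21 results, 139 stayed, 28 moved, 6 fell under the fold and 11 changed sign. The log2 differences of Hoxc13 and Hoxd8 against both later stages and of Hoxb3 between pre-puberty and puberty stayed past the fold in all 9 alternatives run, with ranges of 1.72 to 4.05 and 1.23 to 3.77 for Hoxc13 and Hoxd8 over puberty and -2.16 to -1.46 for Hoxb3. Hoxb3 for puberty over adult ranged from 0.92, in cells of 200000 to 600000 reads, to 1.84, and was past the fold in 8 of 9. TMM scaling was not run for keratin classes, whose ratios lie within a stage.

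Without the top cell of each gene, the summed Hox level was 26.5, 17.6 and 3.52 CPM from pre-puberty to adult, HoxD at pre-puberty 7.68, HoxB at puberty 14.8 and HoxA in the adult 0.108 CPM. The counts of genes lower than in the adult were then 0 and 0, Hoxa7 turned to 0.092 (pre-puberty) and 0.025 (puberty) over adult, Hoxc9 to 0.16 for puberty over adult, and the pubertal keratin count was 0 with Hoxb3 at -0.64. With equal weight for each cell, the sums were 62.9 at pre-puberty and 56.7 in the adult, HoxD 26.1, HoxB 20.4 and HoxA 19.4 CPM, and 1 gene was lower in adult Krt14-only cells. With 200000 reads and 2000 genes as minimum, the sums were 55.1 at pre-puberty and 21.0 in the adult, HoxD 19.7 CPM, the counts lower than in the adult 1 and 1, Hoxc9 turned to 0.49 for puberty over adult, and 0% of pre-pubertal Krt8 or Krt18-only cells had a Hox read. Without fibroblast-rich cells, the sums were 61.9, 28.9 and 17.3 CPM, HoxD 25.0 and HoxB 23.1 CPM, the counts 1 and 1, and Hoxc9 turned to 0.023 (pre-puberty) and 0.15 (puberty) over adult. Without pre-pubertal cells 1 to 37, HoxD was 29.6 CPM.

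With only cells of 200000 to 600000 reads, the sums were 34.6 at puberty and 39.9 in the adult, HoxB 25.4 and HoxA 27.7 CPM, and the counts against the adult were 1 lower for pre-puberty and 0 higher and 1 lower for puberty, with Hoxc9 at 0.35. In these cells Krt14-only cells had 0 genes higher and 1 lower at puberty (Hoxb3 -2.61) and 2 lower in the adult, a Hox read was found in 0% of pre-pubertal Krt8 or Krt18-only and 0% of pubertal Krt14-only cells, and in 50.0% of adult cells. With 1 CPM added, the counts were 4 higher and 3 lower for pre-puberty over puberty, 5 higher for pre-puberty over adult, 3 higher for puberty over adult, and 3 and 2 lower in pubertal and adult Krt14-only cells. Unthinned, 58.6% and 52.1% of pre-pubertal and pubertal cells had a Hox read, 27.6% and 17.6% had 2 or more Hox genes, and 45.0% of pubertal Krt8 or Krt18-only cells had a read. At 3 reads or more, 24.1%, 18.5% and 18.2% of cells had a Hox gene from pre-puberty to adult, 6.03% and 0% of pre-pubertal and adult cells had 2 or more, and 11.25% and 13.6% of pubertal and adult Krt8 or Krt18-only cells had one.

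With keratins called above 10 RPKM or by any read, the adult keratin count was 0, Hoxb3 was -0.57 and -0.97, and 0% of adult Krt14-only cells had a Hox read, while any read gave 100% of pre-pubertal Krt8 or Krt18-only cells. With all Krt14-positive against all Krt8 or Krt18-positive cells the counts of higher genes were 0 at puberty and 0 in the adult. The cause of these changes was not tested. The sparse Hox counts and the 5 Krt14-only cells at puberty and in the adult limit what can be detected.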

Other observations

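Joint detection of the leading genes was looked at after their values were seen, and is given as counts with no test. At pre-puberty, Hoxc13 and Hoxd8 had reads in 16 and 17 of 116 cells and shared 1 cell, cell 57, which had 600 reads of Hoxd8 and 1 of Hoxc13. Hoxd8 was found in 6.25% of cells with Hoxc13 (0.158 to 30.2) and in 16.0% of cells without it (9.43 to 24.7). After thinning, Hoxc13 and Hoxd8 shared 0 of 13 and 12 cells, with shares of 0% (0 to 24.7) and 11.7% (6.17 to 19.5). The intervals overlapped both times, so the small overlap does not show that these genes avoid each other. Hoxc13 and the receptor gene Rarb likewise shared 1 cell. Rarb had a read in 6.25% of cells with Hoxc13 (0.158 to 30.2) and in 35.0% of cells without it (25.7 to 45.2), so these intervals also overlapped. Rarb was found in 6 of 17 cells with Hoxd8 (35.3%) and 30.3% of cells without it.

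At puberty, Meis1 had a read in 6 of 32 cells with Hoxb3 (18.8%, 7.21 to 36.4) and in 40 of 87 without it (46.0%, 35.2 to 57.0). After thinning the counts were 3 of 21 (14.3%, 3.05 to 36.3) and 35 of 98 (35.7%, 26.3 to 46.0), so the intervals overlapped.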
